A study of Mus musculus with 6 samples.

Results

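The genes described here drive or restrain cell division: they copy DNA, run mitosis, start the cycle or inhibit it. The list held 40 genes, given by name, and 39 of them had a measured probe set among the 17720 genes of the table. The level of Ccnb1, a mitotic cyclin, was not analysed here, and only its promoter was searched. Of the 39 genes, 12 act in DNA replication, 15 in mitosis and late cycle, 9 are G1 cyclins, their kinases or the transcription factor E2f1, and 3 are inhibitors of cyclin-dependent kinases. A gene with several probe sets was read from the one with the highest mean over the 6 arrays.

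RNA from adipocytes sorted by flow cytometry was measured with 1 array per sample, in 3 groups of 2 arrays. Marrow-derived adipocytes were taken from the floating, collagenase-freed fat cells of gonadal fat in mice that carried a bone marrow transplant. Their donors expressed green fluorescent protein (GFP) for replicate 1 and beta-galactosidase (LacZ) for replicate 2, and cells were collected on that donor signal. White adipocytes came from gonadal fat and brown adipocytes from the intrascapular depot after its white fat had been removed. The labels call the arrays biological replicates and give no strain, sex, age, treatment or number of mice, and they do not say whether the white and brown samples came from transplanted mice. Each sample pooled at least 6 sorts of about 5000 cells, and the RNA was amplified before labelling. Whether the replicates of a group came from separate mice is not stated, so p-values speak only to differences among the samples at hand, part of which may be technical. The gate was the donor signal with light scatter, and any step that removed blood cells is not given in the sources used here.

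A cell that divides passes through G1, copies its DNA in S phase and separates the copies in mitosis. D-type cyclins with Cdk4 or Cdk6, then E-type cyclins with Cdk2, release E2F factors, which switch on replication genes. Genes of mitosis are switched on later, largely by other factors that act through CCAAT boxes and the cell cycle homology region (CHR) of their promoters. Mature adipocytes are regarded as cells that have left the cycle, while the progenitor, immune and vascular cells of fat can divide.

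Values are log2 expression values, so a difference of 1 is a 2-fold difference. "Called" means an adjusted p under 0.05 in limma over all 17720 genes, and the figure after ± is the SE from limma, with n = 2 arrays in each group. As a guide to background, 66 probe sets of olfactory and vomeronasal receptors had a 95th percentile of 4.06 to 4.81 on the 6 arrays. Of the 39 genes, 31 exceeded that level on all 6 arrays and the other 8 (Aurkb, Bub1, Ccnb2, Cenpe, Kif11, Plk1, Top2a and Tyms) on at least 4. Fat cell transcripts were high on every array, with Adipoq (adiponectin) at 11.86 to 13.24 and Pparg, the main regulator of adipogenesis, at 11.56 to 12.01. Over 14 adipocyte markers the median difference of marrow-derived cells was -1.56 against white and -1.44 against brown. Scaling the arrays to equal medians moves all marrow-derived differences down, by 0.17 against white and 0.19 against brown, and the share of all calls that are higher moves from 47.4% to 36.6% and from 42.7% to 28.5%. It does not turn the sign of any called difference of these genes.

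Mitosis genes were higher in marrow-derived than in brown adipocytes. Of the 15 measured, 13 were called higher and 0 lower, and the median log2 difference was 3.03, against 0.02 over all genes. With the mean of all probe sets of a gene that median was 1.75, and some of those probe sets exceeded background on no array. Over all genes tested, 8.71% were called higher and 11.7% lower. In bulk RNA, more cells that divide and more RNA per cell cannot be told apart. The other members, Aurka (0.35 ± 0.20, adjusted p = 0.282) and Cenpa (0.69 ± 0.60, adjusted p = 0.455), did not pass the test. Aurka encodes a kinase of the spindle poles and Cenpa the histone variant that marks centromeres.

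The gene Mki67, whose product Ki-67 is the standard marker of cycling cells, stood at 9.49 and 9.55 on the marrow-derived arrays, 8.47 and 6.79 on the white arrays and 6.03 and 6.22 on the brown arrays. Both marrow-derived arrays lay above all others, and it was 10.5-fold higher than in brown (3.39 ± 0.54, adjusted p = 0.0153). Top2a, the topoisomerase that untangles sister chromatids, had values of 8.29 and 8.70, then 7.80 and 6.32 in white, then 4.56 and 5.21 in brown. That was a 12.2-fold difference from brown (3.61 ± 0.53, adjusted p = 0.0124). With the mean of all its probe sets the Top2a difference was 1.05, and its other probe sets did not exceed background on any array. For Cdk1, the kinase that drives entry into mitosis, the marrow-derived arrays read 9.01 and 9.03, the white arrays 8.42 and 6.56 and the brown arrays 5.52 and 6.01. The difference from brown was 3.25 ± 0.61 (adjusted p = 0.0223). Its cyclin partners moved alike: Ccna2 read 8.69 and 9.07 against 5.91 and 5.71 in brown (3.07 ± 0.58), and Ccnb2 read 7.89 and 7.93 against 4.23 and 4.89 (3.35 ± 0.64).

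Members of the chromosomal passenger complex and the spindle checkpoint were also called higher than in brown. Birc5 (survivin), which guides Aurora B to the centromere, stood at 9.69 and 9.97 in marrow-derived and 6.22 and 6.52 in brown adipocytes (3.46 ± 0.64). Aurkb, the Aurora B kinase itself, stood at 6.65 and 6.55 against 3.73 and 3.41 (3.03 ± 0.46). The brown values of Aurkb lay below the receptor background of their arrays, so its 8.15-fold difference is one from background. The checkpoint kinase gene Bub1 read 7.23 and 6.995 against 3.37 and 4.21 (3.32 ± 0.74), and its relative Bub1b 7.82 and 7.71 against 6.04 and 5.43 (2.03 ± 0.34). Both brown values of Bub1 were also within background, as were those of Kif11 and Plk1 below, and brown replicate 1 was within it for Top2a, Ccnb2 and Cenpe.

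Motor and exit genes completed the group. The spindle motor gene Kif11 stood at 6.31 and 7.21 in marrow-derived and 3.81 and 3.93 in brown adipocytes, 7.43-fold apart (2.89 ± 0.52). Cenpe, a kinetochore motor, read 6.89 and 7.31 against 4.42 and 4.73 (2.52 ± 0.43). Differences were smaller for Plk1, a mitotic kinase (6.23 and 6.42 against 4.66 and 4.50, 1.75 ± 0.33), and Cdc20, which activates the ligase that ends mitosis (6.98 and 7.69 against 5.65 and 5.49, 1.77 ± 0.45). These calls rest on the pairs. Many were lost without the GFP or the LacZ array, and all were lost when 1 brown array was left out. Fewer of all genes were called in these fits too, so a lost call is not particular to the mitosis genes. Their median stayed between 2.88 and 3.20 with 1 array left out at a time. With 1 array left in a group the fit takes its spread from the other groups.

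**Figure D1:**
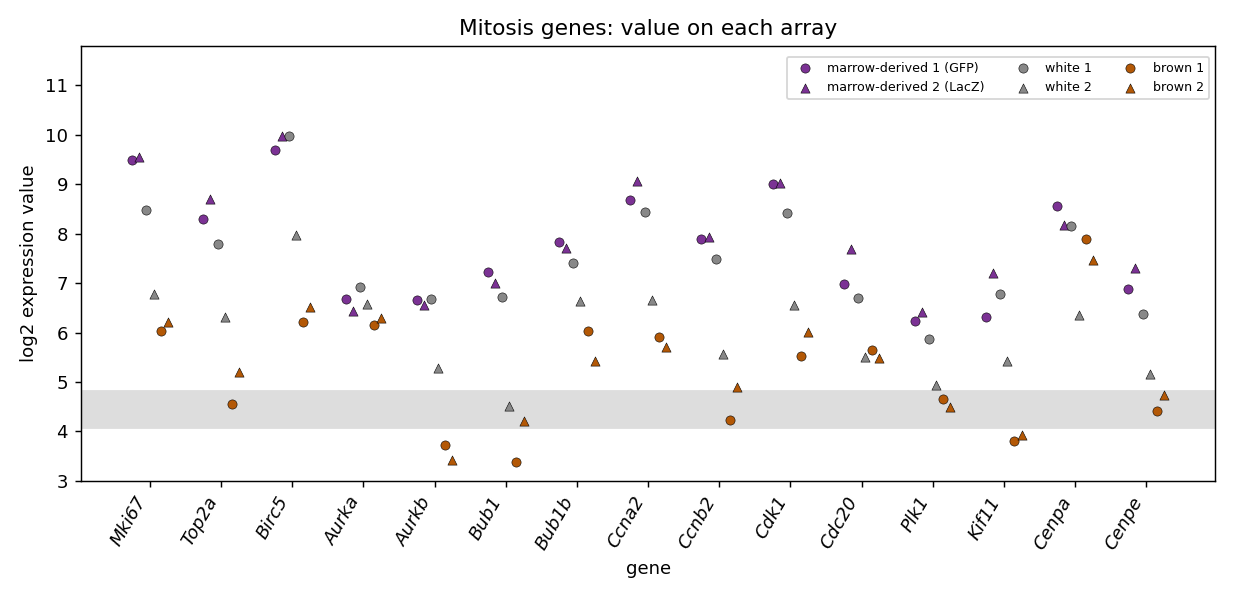
Log2 expression value (vertical axis) of the 15 measured mitosis genes (horizontal axis) on each of the 6 arrays, 1 point per array, with replicate 1 as circles and replicate 2 as triangles. The grey band spans the 95th percentile of receptor background over the arrays, 4.06 to 4.81. For Mki67 both marrow-derived points (9.49 and 9.55) lie above white (8.47 and 6.79) and brown (6.03 and 6.22), and white replicate 1 lies above white replicate 2 for every gene.

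Since the mitosis genes moved together, the 250 bases before their starts were searched for the elements named above, in RefSeq's promoter table (GRCm38.p6). A window was found for 34 of the 40 listed genes, and the first window listed was used for the 4 with several. Both strands were searched for CHR, spelled TTTGAA or else TTCGAA, for the CCAAT box (CCAAT), and for the E2F site in any of its 4 spellings. These were TTGGCGC as the first, TTGCCGC as the second, TTCGCGC as the next and TTCCCGC as the last. Shown are 4 of the 7 mitosis genes that hold both CHR and CCAAT letters and 2 replication genes with E2F letters, all called higher than brown and picked after their matches were seen. Capitals mark every match on either strand. Between different elements no match overlapped in these 6 windows, while E2F matches in Mcm5 and Mcm6 overlap each other on opposite strands.
Top2a, chr11:99024190-99024439, minus strand: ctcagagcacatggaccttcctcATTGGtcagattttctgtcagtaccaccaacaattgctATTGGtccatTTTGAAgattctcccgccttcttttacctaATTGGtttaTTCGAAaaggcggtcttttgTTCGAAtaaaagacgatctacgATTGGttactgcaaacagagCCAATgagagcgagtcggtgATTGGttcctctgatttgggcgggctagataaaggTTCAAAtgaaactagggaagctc
Ccnb2, chr9:70421555-70421804, minus strand: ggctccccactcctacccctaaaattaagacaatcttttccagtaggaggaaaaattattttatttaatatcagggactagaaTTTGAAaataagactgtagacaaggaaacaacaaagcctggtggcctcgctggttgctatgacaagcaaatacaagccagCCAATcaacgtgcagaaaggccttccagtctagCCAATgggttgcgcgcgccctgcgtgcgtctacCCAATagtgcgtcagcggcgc
Cdk1, chr10:69352913-69353162, minus strand: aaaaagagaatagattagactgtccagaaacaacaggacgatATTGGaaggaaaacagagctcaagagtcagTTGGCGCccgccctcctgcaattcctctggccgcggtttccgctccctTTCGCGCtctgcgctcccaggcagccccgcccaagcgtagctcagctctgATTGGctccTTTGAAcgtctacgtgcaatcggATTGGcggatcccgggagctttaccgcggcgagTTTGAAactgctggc
Cdc20, chr4:118437344-118437593, minus strand: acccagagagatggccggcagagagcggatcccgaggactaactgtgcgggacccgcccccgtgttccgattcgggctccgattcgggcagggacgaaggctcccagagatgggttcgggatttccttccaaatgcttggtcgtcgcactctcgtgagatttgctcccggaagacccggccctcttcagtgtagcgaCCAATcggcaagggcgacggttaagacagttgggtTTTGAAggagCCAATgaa
Mcm5, chr8:75109259-75109508, plus strand: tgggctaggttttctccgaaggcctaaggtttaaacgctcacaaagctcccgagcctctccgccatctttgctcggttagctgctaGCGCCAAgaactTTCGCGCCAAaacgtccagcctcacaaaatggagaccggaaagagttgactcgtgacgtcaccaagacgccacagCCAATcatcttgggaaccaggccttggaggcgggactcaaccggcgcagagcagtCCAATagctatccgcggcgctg
Mcm6, chr1:128359706-128359955, minus strand: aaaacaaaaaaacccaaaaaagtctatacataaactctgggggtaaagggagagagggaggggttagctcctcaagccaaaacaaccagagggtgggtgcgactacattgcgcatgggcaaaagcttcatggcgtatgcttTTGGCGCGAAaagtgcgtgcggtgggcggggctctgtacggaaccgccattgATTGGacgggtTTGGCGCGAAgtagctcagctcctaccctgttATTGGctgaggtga

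Of the 14 mitosis genes with a window, Ccnb1 among them, 13 held a CCAAT box (92.9%) and 7 a CHR. The same letters occurred in 34.5% and 17.4% of 27025 promoter windows of the same length. CHR and CCAAT together were in 7 of the 14, and in 6.21% of all windows. The E2F letters were in 6 of 11 replication windows (54.5%), 3 of 14 mitosis windows (21.4%) and 7.97% of all windows, and the difference between the 2 groups was not tested. The CCAAT box was in 8 of the 11 replication windows and CHR in 2. In Cdk1 a CCAAT match 44 bases before the start is followed by a CHR match that ends 10 bases before it, and in Cdc20 the nearest CHR match ends at 13 bases. The window of Birc5 held no match. A match is a run of letters, and binding was not measured.

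**Figure D2:**
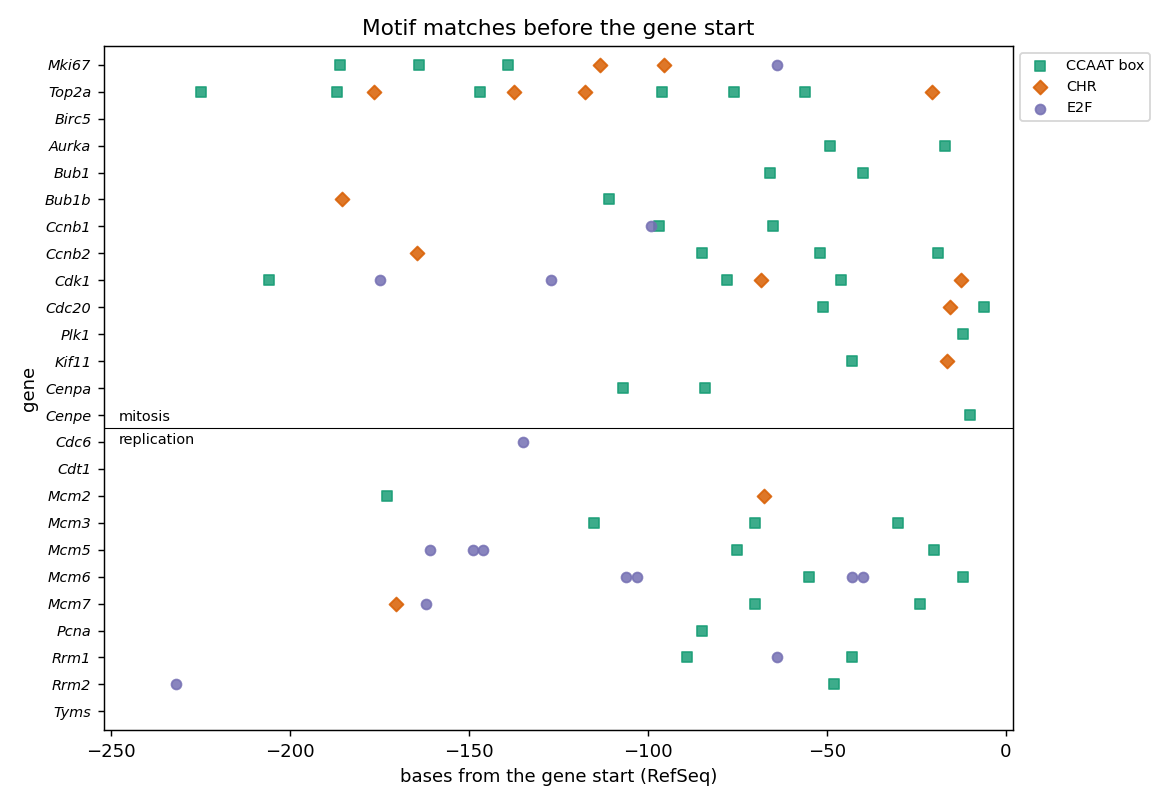
Position of each CCAAT box, CHR and E2F match (horizontal axis, bases from the RefSeq gene start) in the window of each mitosis gene (above the line) and replication gene (below it), 1 row per gene. CCAAT matches occur in 13 of 14 mitosis windows and 8 of 11 replication windows, and E2F matches in 3 and 6.

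Against white adipocytes the mitosis genes of marrow-derived cells differed less, and the white arrays disagreed. None of the 15 was called in either direction in limma, where 5 had an unadjusted p under 0.05. Over all genes, 12.2% were called higher and 13.6% lower. The median difference was 1.24, against -0.07 over all genes. In 11 of the 15 both marrow-derived arrays lay above both white arrays, which held for 28.5% of all genes and for 29 of the 39 cell cycle genes. The nearest to the threshold was Mki67 (1.89 ± 0.54, adjusted p = 0.0564), followed by Cenpe (1.34 ± 0.43, adjusted p = 0.0765).

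The white pair was split. All 15 mitosis genes were higher on white replicate 1 than on white replicate 2, by 0.35 (Aurka) to 2.19 (Bub1) with a median of 1.48, while over all genes the median was -0.07. Of all 17720 genes, 7325 were higher on white replicate 1. Birc5 stood at 9.98 and 7.97 on these arrays, and its marrow-derived values of 9.69 and 9.97 fall between them. Aurkb (6.68 and 5.28), Kif11 (6.77 and 5.43) and Aurka (6.92 and 6.57) also overlapped the marrow-derived arrays. Bub1 stood at 6.71 on white replicate 1 and at 4.52 on white replicate 2, and Ccnb2 at 7.49 and 5.56. As a result the median difference from white was 0.43 without white replicate 2 and 1.94 without white replicate 1. Which of the 15 passed depended on the white array kept, and fewer of all genes were called in both fits.

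The marrow-derived pair did not split in this way. The mitosis genes differed between the GFP and LacZ arrays by a median of -0.06, with 5 of 15 higher on the GFP array, and the widest gap was in Kif11 (6.31 and 7.21). Over all 17720 genes the median was -0.09, with 7211 higher on the GFP array. In the brown pair the median was -0.15 and 6 of 15 were higher on replicate 1, beside 0.01 and 9043 of 17720 over all genes.

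Between white and brown adipocytes, 1 of the 15 mitosis genes was called higher in white, Aurkb (2.41 ± 0.46, adjusted p = 0.0386), and the median difference was 1.73. Over all genes 3.87% were called higher and 5.34% lower. Both white arrays were above both brown arrays for 13 of the 15, and for 32.4% of all genes. Birc5 was not called (2.60 ± 0.64, adjusted p = 0.0701). Without white replicate 2 the median was 2.63, and without white replicate 1 it was 0.80. The Aurkb call was lost when 1 brown array was left out. The full order, with both marrow-derived arrays above both white arrays and those above both brown arrays, held for 9 of 15 mitosis genes, 2 of 12 replication genes and 4.08% of all genes.

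Replication genes were higher in marrow-derived than in brown adipocytes in fewer members and by less. Of 12 measured, 6 were called higher and 0 lower, beside 8.71% and 11.7% of all genes. The median log2 difference was 1.17, against 0.02 over all genes. The called genes were 5 subunits of the MCM helicase, which opens DNA at replication origins, and Rrm2, the regulated subunit of the enzyme that makes deoxynucleotides. Both marrow-derived arrays lay above both brown arrays for 10 of the 12, against 33.0% of all genes and 32 of the 39 cell cycle genes.

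Within the helicase, Mcm6 stood at 9.90 and 9.64 on the marrow-derived arrays, 9.25 and 8.03 on the white arrays and 7.96 and 7.83 on the brown arrays (1.87 ± 0.41 against brown, adjusted p = 0.0332). Mcm5 read 8.67 and 8.52, then 8.06 and 6.84, then 6.92 and 6.59 (1.84 ± 0.42, adjusted p = 0.0358). For Mcm2 the values were 8.47 and 8.19, then 7.51 and 6.83, then 6.94 and 6.41 (1.66 ± 0.32, adjusted p = 0.0236). In all 3 genes white replicate 1 lay between the marrow-derived and brown pairs, and white replicate 2 lay within the brown pair or next to it. Mcm3 (1.51 ± 0.33) and Mcm7 (0.84 ± 0.20) were called too, the latter in only 5 of 15 alternatives, while Mcm4, at 10.05 and 9.81 against 9.73 and 9.24 in brown, was not (0.45 ± 0.25, adjusted p = 0.256). The calls of the replication group were mostly or wholly lost without 1 marrow-derived or 1 brown array, where fewer of all genes were called too. The replication median stayed between 0.99 and 1.53 with 1 array left out at a time.

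Rrm2 stood at 10.91 and 11.09 in marrow-derived, 10.47 and 8.90 in white and 8.93 and 8.60 in brown adipocytes, 4.71-fold apart from brown (2.24 ± 0.51, adjusted p = 0.0374). Rrm1, its constant partner, was not called, with 8.70 and 8.50 against 8.79 and 8.69 in brown (-0.14 ± 0.23, adjusted p = 0.706). Cdt1, which loads the helicase, had the largest difference of the group without passing (9.44 and 9.08 against 7.29 and 6.49, 2.37 ± 0.65, adjusted p = 0.0577). Its partner Cdc6 was uneven within every pair, at 7.73 and 9.07 in marrow-derived, 6.78 and 5.55 in white and 8.01 and 7.12 in brown. Cdc6 is the replication gene whose white arrays were below both brown arrays by the most (-1.40 ± 0.64, adjusted p = 0.245). Pcna, the sliding clamp of DNA polymerase, spanned 10.97 to 12.21 over all arrays (0.82 ± 0.31 against brown, adjusted p = 0.125), and Tyms, which makes thymidylate, lay near background at 4.56 to 5.38.

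Against white adipocytes 1 replication gene was called higher, Mcm2 (1.16 ± 0.32, adjusted p = 0.0488), and 0 lower, beside 12.2% and 13.6% of all genes, with a median difference of 1.07. The Mcm2 call held in 5 of 15 alternatives and was lost with median centring (adjusted p = 0.0558 in limma). Both marrow-derived arrays were above both white arrays for all 12 measured replication genes, beside 28.5% of all genes. Cdc6 had the largest difference (2.23 ± 0.64, adjusted p = 0.0558). The split of the white pair ran through this group too: 10 of 12 were higher on white replicate 1, beside 7325 of all 17720 genes. The median was 0.80, and Mcm7 and Tyms were not higher. Without white replicate 1 the median was 1.46, and without white replicate 2 it was 0.52. The Mcm2 call was lost without white replicate 2, where fewer of all genes were called. At an unadjusted p under 0.05 in limma, 7 passed with both white arrays. Between white and brown 0 of 12 were called in limma, beside 3.87% higher and 5.34% lower over all genes. At an unadjusted p under 0.05 in limma, 1 passed, and the median was 0.40.

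**Figure D3:**
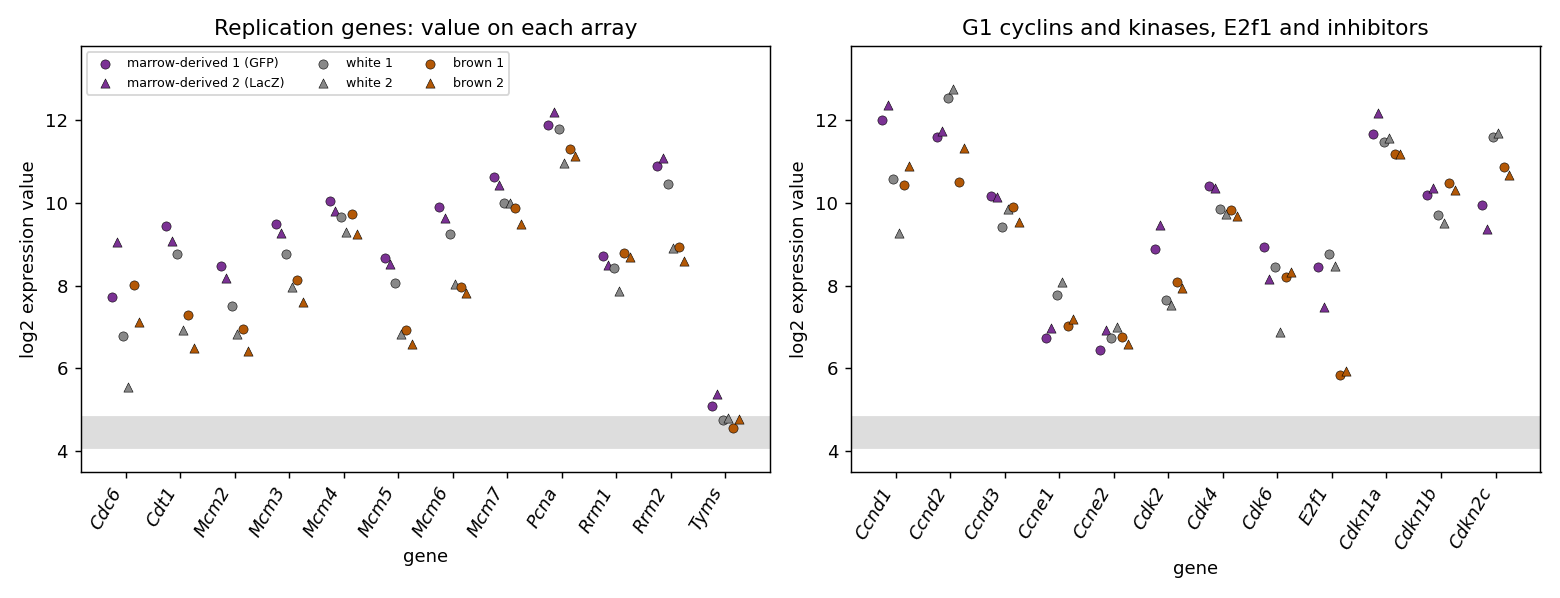
Log2 expression value of the 12 replication genes (left) and of the 9 G1 genes and 3 inhibitors (right) on each array, 1 point per array, marked as in the plot of mitosis genes. Rrm2 runs from 10.91 and 11.09 in marrow-derived to 8.93 and 8.60 in brown cells, while E2f1 has its high values in white (8.77 and 8.47) and its low ones in brown (5.83 and 5.93).

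Set side by side, the mitosis and replication groups had like medians against white (1.24 and 1.07) and unlike ones against brown (3.03 and 1.17) and for white against brown (1.73 and 0.40). These comparisons share arrays. After each gene's mean over the 6 arrays was subtracted, the mitosis median ran from -1.65 on brown replicate 1 to 1.497 on the LacZ array, and the replication median from -0.75 on brown replicate 2 to 0.77 on the LacZ array. On white replicate 2 both were low, at -0.65 and -0.60. The replication median there was below that of brown replicate 1 (-0.37), while the mitosis median was above both brown arrays (-1.65 and -1.42). The difference between the mitosis and replication groups was not tested, and several mitosis genes were within background on brown arrays.

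**Figure D4:**
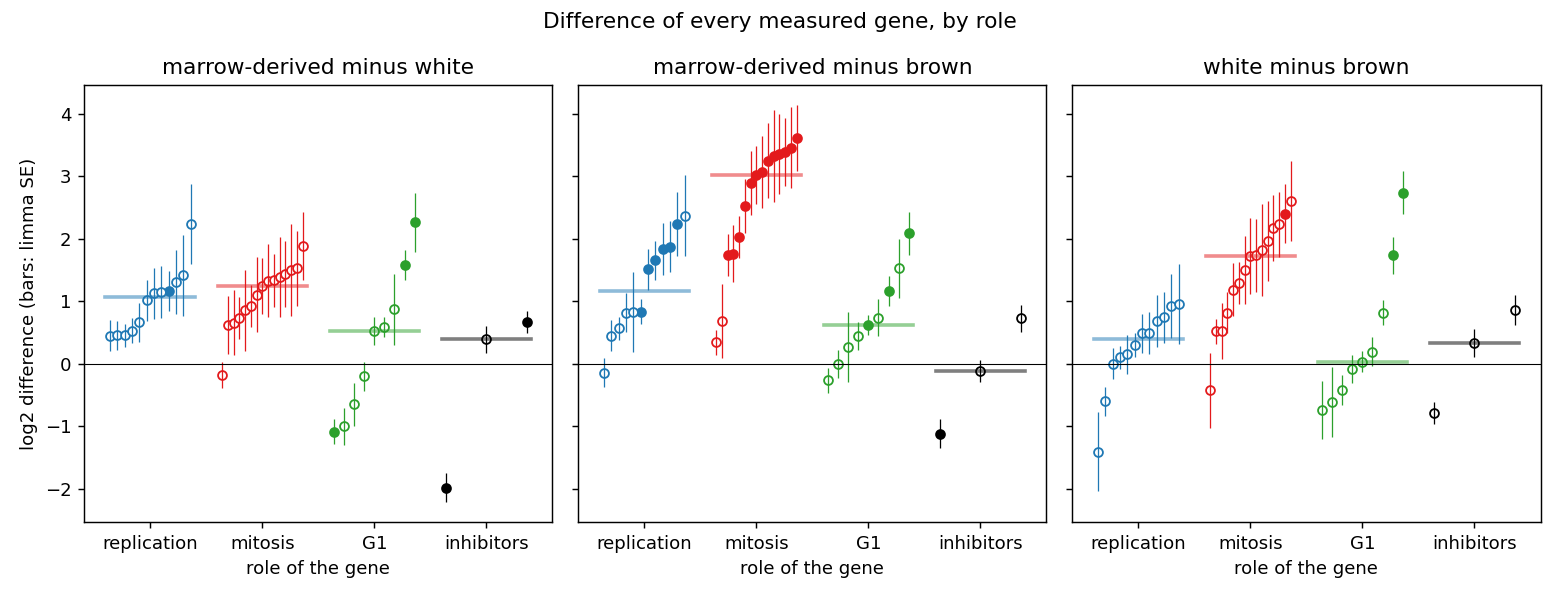
Log2 difference (vertical axis, bars show limma's SE, n = 2 arrays per group) of each measured gene by role, for the 3 comparisons. Filled points passed an adjusted p of 0.05, and horizontal lines are group medians, such as 3.03 for mitosis and 1.17 for replication in marrow-derived minus brown.

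The G1 genes did not move as 1 group. Against white, 2 of 9 were called higher and 1 lower, beside 12.2% and 13.6% of all genes, with a median of 0.52. These calls were lost without white replicate 2, where fewer of all genes were called. Against brown 3 were called higher and 0 lower, beside 8.71% and 11.7% of all genes, and 2 and 0 between white and brown, beside 3.87% and 5.34%. Cyclin D1 (Ccnd1), which links growth signals to the cycle, stood at 11.997 and 12.38 on the marrow-derived arrays, 10.59 and 9.26 on the white arrays and 10.43 and 10.89 on the brown arrays. It was 4.81-fold higher than in white (2.27 ± 0.47, adjusted p = 0.0234), and its difference from brown was 1.53 ± 0.47 (adjusted p = 0.0768). Other probe sets of Ccnd1 gave 2.72 and 2.92 against white and 2.89 and 2.21 against brown. Cyclin D2 (Ccnd2) had another order, with white highest at 12.55 and 12.76, marrow-derived at 11.58 and 11.74 and brown at 10.52 and 11.33. It was called higher in white than in brown (1.74 ± 0.30, adjusted p = 0.0291), and its difference between marrow-derived and white was -0.997 ± 0.30 (adjusted p = 0.0638). Cyclin D3 (Ccnd3) stayed between 9.43 and 10.18 on all arrays.

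Among the kinases, Cdk2 was higher in marrow-derived cells than in both other groups. Its values were 8.89 and 9.47, against 7.65 and 7.53 in white (1.59 ± 0.24, adjusted p = 0.0104) and 8.09 and 7.93 in brown (1.17 ± 0.24, adjusted p = 0.0282). Its partner cyclin E1 (Ccne1) was lower than in white, at 6.72 and 6.97 against 7.77 and 8.09 (-1.08 ± 0.20, adjusted p = 0.0176), with brown at 7.02 and 7.20. Ccne2 overlapped in all comparisons, at 6.43 to 7.01. Cdk4 was steady within pairs and called higher than brown by a small step (10.41 and 10.35 against 9.83 and 9.68, 0.62 ± 0.16, adjusted p = 0.0499), a call that held in 5 of 15 alternatives. Against white its difference was 0.59 ± 0.16 (adjusted p = 0.0507), so the calls differ more than the values do. Cdk6, the other kinase of the D cyclins, spread from 6.87 to 8.93 without a call (0.87 ± 0.56 against white).

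The transcription factor gene E2f1 had an order unlike that of the replication genes, with white high. It stood at 8.45 and 7.48 in marrow-derived, 8.77 and 8.47 in white and 5.83 and 5.93 in brown adipocytes. Both of the first groups were called higher than brown, by 2.09 ± 0.34 (adjusted p = 0.0167) and 2.74 ± 0.34 (adjusted p = 0.0152). White replicate 2, which was low for the mitosis genes, had an E2f1 value within 0.30 of white replicate 1. Another probe set for E2f1 gave 1.49 and 2.57 for these differences and the last one, at 4.51 to 5.03 on the brown arrays, gave -0.13 and 0.14.

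Inhibitors of the kinases split as well. Cdkn2c (p18), which blocks Cdk4 and Cdk6, was lowest in marrow-derived cells, at 9.95 and 9.38 against 11.60 and 11.68 in white and 10.87 and 10.69 in brown. It was 3.94-fold lower than in white (-1.98 ± 0.24, adjusted p = 0.00669) and 2.16-fold lower than in brown (-1.11 ± 0.24, adjusted p = 0.0308). The Cdkn1b gene (p27) was 1.60-fold higher than in white, at 10.20 and 10.36 against 9.71 and 9.51 (0.67 ± 0.18, adjusted p = 0.0439), and brown stood at 10.49 and 10.30. That call held in 5 of 15 alternatives. It was lost without any 1 of the 6 arrays and with median centring, where the difference was 0.51 (adjusted p = 0.117 in limma). Leaving out either brown array gave the same fit as the marrow-derived and white arrays alone, so these are not separate losses. Cdkn1a (p21), a target of p53, was high on all arrays at 11.19 to 12.18, and no comparison was called.

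Probe sets of 1 gene mostly went the same way. Of 43 other probe sets above background on at least 2 arrays, 2 had the opposite sign for marrow-derived against white (Bub1b and Rrm1) and 4 for marrow-derived against brown (Bub1b, Cdkn1b, E2f1 and Kif11). For white against brown 6 did (Bub1b, Ccnd1, Ccnd3, Cdk4, Cenpa and Kif11). Some of the 43 exceeded background only on the marrow-derived arrays and white replicate 1, among them probe sets of Rrm2, Aurkb and Kif11. For these the filter itself favours the same sign, so the agreement is partly built in. All 7 probe sets of Ccnd2 gave a log2 difference between marrow-derived and white of -0.98 to -1.37.

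Other genes of the same machinery were listed by function with earlier results of these data known. Several of their values lay within background, and differences from such a value are differences from background. Among the genes named below, this held on both brown arrays for Cenpf, Ckap2, Spc25, Cdca5 and E2f8, and on 1 for Pbk, Anln, Tk1 and Pole. On white replicate 2 it held for Cenpf and E2f7. Further genes counted as called higher than brown, not named here, also had both brown values within background. Of 55 further mitosis genes, 36 were called higher and 0 lower in marrow-derived than in brown, beside 8.71% and 11.7% of all genes. Their median was 1.89. Against white 5 were called higher and 0 lower, beside 12.2% and 13.6% of all genes, with a median of 0.70. The 5 called higher are not more than the share over all genes. Pbk, a mitotic kinase, stood at 8.65 and 8.67 on the marrow-derived arrays, 7.58 and 5.89 on the white arrays and 4.23 and 4.71 on the brown arrays (4.18 ± 0.56 against brown). Also called were the spindle assembly factor Tpx2 (3.47 ± 0.64) and Prc1, which bundles the central spindle (3.44 ± 0.66). Called against white were, among others, Cenpf (2.41 ± 0.38), Ckap2 (1.51 ± 0.33) and the checkpoint kinase gene Ttk (1.43 ± 0.34). Between white and brown 12 of the 55 were called higher and 0 lower, beside 3.87% and 5.34% of all genes. Among those called were the kinetochore gene Spc25 (3.19 ± 0.46), Anln, a scaffold of cell cleavage (2.74 ± 0.26), and the cohesion factor Cdca5 (2.31 ± 0.34). White replicate 1 exceeded white replicate 2 for 50 of the 55, beside 7325 of all 17720 genes.

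Of 37 measured further replication genes, 12 were called higher and 1 lower than brown (median 0.83), beside 8.71% and 11.7% of all genes. Among those called were thymidine kinase Tk1 (2.92 ± 0.62), the polymerase gene Pole (2.498 ± 0.28) and the origin-firing kinase gene Cdc7 (2.23 ± 0.31). Against white 10 were called higher and 2 lower (median 0.30), beside 12.2% and 13.6% of all genes. Called higher were, among others, Timeless (3.45 ± 0.34), a replication fork protein, the primase-polymerase subunit gene Pola2 (2.71 ± 0.37) and Cdc7 (2.60 ± 0.31). The 2 called lower than white were Gins2 (-1.64 ± 0.34) and Cdc45 (-1.46 ± 0.19). Cdc45 was also the 1 called lower than brown (-0.87 ± 0.19). Timeless was high in marrow-derived (10.76 and 11.46) and brown cells (10.21 and 9.49) and low in white (7.72 and 7.61), so its order was not that of the mitosis genes. For white against brown 3 were called higher and 1 lower, beside 3.87% and 5.34% of all genes. Pole stood at 2.29 ± 0.28, Gins2, of the replicative helicase, at 2.20 ± 0.34 and Timeless at -2.19 ± 0.34.

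Among 33 further regulators and brakes, 3 were called higher and 6 lower than in white, and 2 higher and 4 lower than in brown. These are near the shares over all genes, 12.2% and 13.6% against white and 8.71% and 11.7% against brown. The inhibitor gene Cdkn2b (p15) stood at 6.28 and 6.88 in marrow-derived and 9.11 and 9.64 in white adipocytes (-2.79 ± 0.48, adjusted p = 0.0143). Cdkn1c (p57) went the other way, at 9.59 and 9.24 against 7.02 and 7.69 (2.06 ± 0.27). It alone of this list was called between white and brown (-1.99 ± 0.27), beside 3.87% higher and 5.34% lower over all genes. E2f7, a repressor of E2F targets, was higher than in white (3.15 ± 0.80, adjusted p = 0.0411). Called against brown were its relative E2f8 (2.28 ± 0.59), the retinoblastoma relative Rbl1 (1.26 ± 0.27) and E2f6 (-1.14 ± 0.21).

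Markers of other cells moved along some of the same lines, and their part in these results was not tested. The 20 macrophage markers had a mean level of 11.7 on the GFP and 8.87 on the LacZ array, 11.6 and 10.2 on the white arrays and 9.14 and 8.43 on the brown arrays. All 20 were higher on the GFP than on the LacZ array, by a median of 3.09, while the mitosis genes differed by -0.06 between those arrays. On the white arrays, 19 of the 20 were higher on replicate 1, by a median of 1.54, beside 15 of 15 mitosis genes and 7325 of all 17720 genes. Ptprc, the CD45 antigen of all white blood cells, read 10.87 and 7.62, 10.89 and 8.80, and 8.36 and 7.32 in the same order of arrays. The median macrophage difference of marrow-derived cells was -0.70 against white and 1.56 against brown. In limma 0 of the 20 were called in either comparison, and 0 had an unadjusted p under 0.05. Over all genes, 12.2% were called higher and 13.6% lower than in white, and 8.71% and 11.7% than in brown.

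All 12 endothelial markers were called higher in marrow-derived than in white cells, with mean levels of 11.7 and 12.3 against 8.70 and 7.61, and 0 were called against brown (11.4 and 10.9), where 3 had an unadjusted p under 0.05. For this and the lists below, the shares of all genes were 12.2% higher and 13.6% lower than in white, and 8.71% and 11.7% than in brown. The endothelial markers were also higher on white replicate 1 than on white replicate 2 in 12 of 12, by a median of 1.12, beside 7325 of all 17720 genes. The order over the groups therefore differed from that of the mitosis genes, which were lowest in brown. Fibroblast markers had mean levels of 10.3 and 9.97 in marrow-derived, 9.52 and 8.45 in white and 7.87 and 7.13 in brown cells. In mean level this was the order of the mitosis genes. The full order on single arrays held for 3 of the 12 fibroblast markers, 9 of 15 mitosis genes and 4.08% of all genes. Both white arrays lay above both brown arrays for 9 of the 12 markers and below them for 2. Of these 12 markers, 6 were called higher in marrow-derived than in brown and 3 higher than in white, and 11 were higher on white replicate 1. Adipocyte markers (14 measured) had mean levels of 11.7 and 10.9 in marrow-derived against 12.7 and 12.9 in white and 12.6 and 12.7 in brown, with 7 called lower than in white and 6 lower than in brown.

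Blood progenitor markers (9 measured) had mean levels of 7.24 and 7.26 in marrow-derived, 6.15 and 5.61 in white and 6.73 and 6.61 in brown, with 4 called higher than in white and 0 called against brown (2 at an unadjusted p under 0.05). T and NK cell markers (10 measured) stood at 6.09 on the GFP array and at 4.43 to 4.99 on the others, B cell markers (8) at 5.96 to 7.04, neutrophil markers (8) at 4.15 to 6.25 and erythroid markers (6) at 4.35 to 4.77. Smooth muscle markers (8) were at 9.505 and 10.1 in marrow-derived and 8.08 to 8.43 elsewhere, and mesothelial markers (7) at 5.91 to 7.73 in the gonadal samples and 3.91 and 4.15 in brown. Of the smooth muscle markers, 5 were called higher in marrow-derived than in white and 4 higher than in brown. Of the mesothelial markers, 0 and 4 were.

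**Figure D5:**
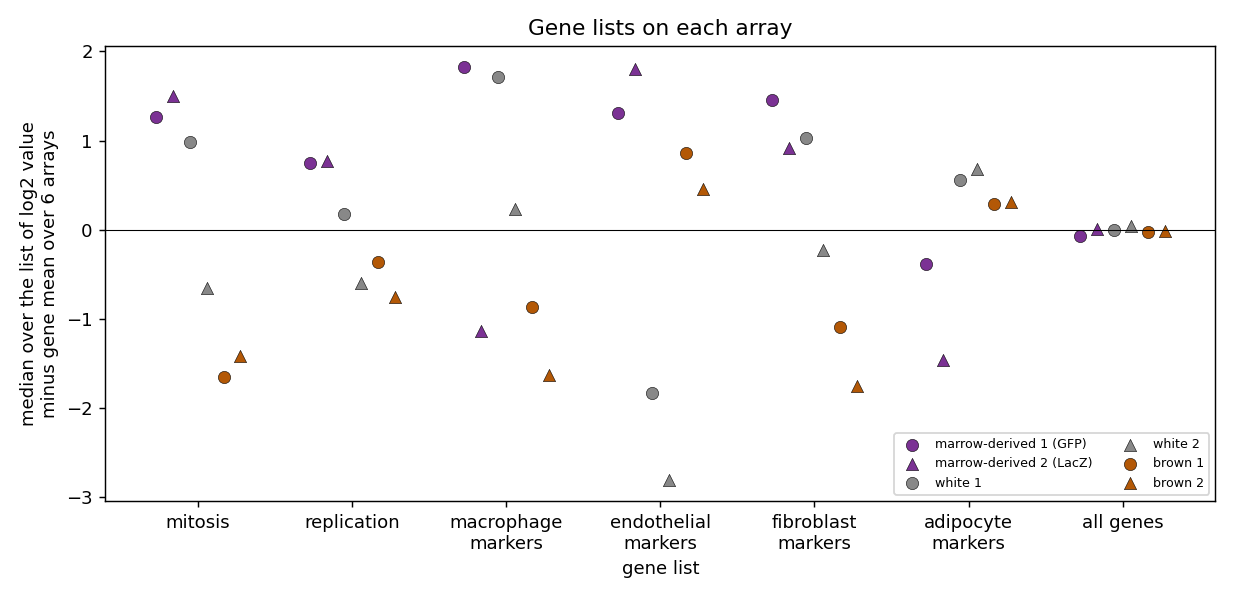
Median over each gene list of the log2 value minus the gene's mean over the 6 arrays (vertical axis), 1 point per array. Mitosis medians lie at 1.27 and 1.497 on the marrow-derived arrays, where the macrophage medians are 1.83 and -1.14, and at 0.98 and -0.65 on the white arrays.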

How the data were processed

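RNA of 6 sorted adipocyte samples was measured on arrays. The authors deposited 1 log2 value for each probe set and array. Per the submitters' processing notes, RMA and Partek were used, without a version or an order of steps, and a genome build is not given in the sources used here. RMA equalizes the distributions of arrays and gives no detection calls. The log base was taken from the values. The number of arrays limits the precision.

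Of 43057 probe sets, 33565 had 1 gene symbol in the platform annotation, 857 several and 8635 were unnamed here, and only the first kind was used. By gene ID, 33376 matched RefSeq (GRCm38.p6) and 0 symbols changed. Group means of all 6 arrays were fitted with limma 3.58.1 in R 4.3.3, with empirical Bayes moderation (3 residual and 2.35 prior degrees of freedom), two-sided tests and Benjamini-Hochberg adjustment over 17720 genes at 0.05. On simulated data of 17720 genes made for the comparison of marrow-derived with white, the fit recovered 28 of 50 genes changed by 2 on the log2 scale. The simulation changed far fewer genes than were called in the data. Its adjustment was therefore stricter, and it does not measure power in the real comparison.

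All listed genes were named. From the further lists the 3 called genes with the largest difference were named, or 1 if none was called, and from the marker lists only a fixed few. Cdc45 and Gins2 were also named as the further replication genes called lower than white. Members and lists were chosen with earlier results of these data known, so they support nothing by themselves. Alternatives changed scaling, probe set choice, the filter, moderation, the arrays fitted and the block.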

Additional observations from a re-analysis of the deposited data

How the results depend on the processing

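The 32 calls of single genes had 15 alternatives each. They stayed called in 316 of 480 cases, and in 164 they did not. None changed sign, but several alternatives alter only the spread or the adjustment and leave the difference as it is. The sign could not change in those. Leaving out 1 array of the group not compared gave the same fit as the 4 arrays compared alone. That fit was therefore counted more than once. For marrow-derived against white (6 of 39 called, 4579 of all genes), the count was 10 with the probe set of largest SD, and 0 without moderation (6 at an unadjusted p under 0.05), where 555 of all genes were called. With only those 4 arrays fitted, 2727 of all genes were called. For marrow-derived against brown (23 and 3611), no moderation gave 0 (24 unadjusted) and 961, and the mean of all probe sets lowered the mitosis median from 3.03 to 1.75. For white against brown (3 and 1632), no moderation gave 0 (9 unadjusted) and 0, the trended prior 6 and the 4 arrays alone 5, and the mean of all probe sets lowered the mitosis median from 1.73 to 0.90.

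With 1 array left out at a time, the counts of these genes ranged from 1 to 22 against white, 0 to 22 for marrow-derived against brown and 0 to 11 for white against brown. Counts over all genes ranged from 1749 to 4281, 300 to 3121 and 5 to 2251. Mitosis medians ranged from 0.43 to 1.94, 2.88 to 3.20 and 0.80 to 2.63, and replication medians from 0.52 to 1.46, 0.99 to 1.53 and 0.09 to 0.70. A fit with 1 array in a group has fewer samples and takes that group's spread from the others. Further causes were not tested.

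The labels number the replicates 1 and 2 in each group without saying that equal numbers share a mouse or a day. Differences between replicates 1 and 2 correlated over genes at 0.205 between marrow-derived and white, -0.004 between marrow-derived and brown and 0.277 between white and brown. With the replicate block, 7, 20 and 3 of the 39 genes were called in the 3 comparisons.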
